A study of Arabidopsis thaliana with 6 samples.

Results

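The 55 genes described here encode enzymes that cut, demethylate and deacetylate pectin in Arabidopsis thaliana cell walls, together with proteins that carry a methylesterase inhibitor domain. They were chosen by locus and sorted into 14 pectate lyases, 20 pectin methylesterases, 15 proteins with a methylesterase inhibitor domain and 6 pectin acetylesterases. The 15 are called inhibitors below by this domain alone. Of the 55 genes, 39 were paired with a probe set of their own, among 13288 genes so paired on the whole array, and 16 were not analysed here for want of a pairing. Of these 39, 28 were above the detection floor on at least 3 of the 6 arrays and were tested, against 7265 genes in all, and 11 did not pass, of which 9 were at or below the floor on all 6 arrays.

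Vegetative rosettes of Col-0 plants were compared after soil water deficit and after continued watering. Plants of both groups were 4 weeks old when the treatments began, and the water deficit group was dried until its relative water content reached 65%. Each group had 3 Affymetrix ATH1 arrays, 1 for each independent replicate of total RNA. Values are normalized signals, that is probe set intensities after quantile normalization of the 6 arrays, and the detection floor was 18.5 units (4.21 on the log2 scale), the highest signal of 27 control probe sets for Bacillus transcripts.

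Homogalacturonan, the main pectin of the primary wall, reaches the wall with most of its acid groups methylated. Pectin methylesterases remove the methyl groups, and the freed stretches can then bind calcium and stiffen the wall, or be cut by pectate lyases and polygalacturonases. Methylesterase inhibitors are small proteins that bind the methylesterases and block them, and acetylesterases remove acetyl groups from the same polymer. In leaves this set of proteins is best known for its part in cell expansion, cell adhesion, guard cell wall mechanics and the response to pathogens.

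Watered replicate 1 stood apart in 2 control measures. The ratio of 3' to 5' signal of actin, a sign of RNA integrity or of incomplete cDNA, was 1.74 to 1.78 on the water deficit arrays and 3.50, 2.02 and 1.93 on watered replicates 1, 2 and 3. For GAPDH the ratio was 1.45 to 2.02 under water deficit and 4.08, 1.65 and 1.98 in watered replicates 1, 2 and 3. Replicate 1 was also the dimmest array of each group, with a median signal before normalization of 18.9 in water deficit replicate 1 and 12.6 in watered replicate 1, against 45.6 and 51.6 on the other water deficit arrays and 29.6 and 38.2 on the other watered arrays. Every watered array had a higher actin ratio than every water deficit array, whereas the GAPDH ratios of the groups overlapped. Each watered array was also dimmer than the water deficit array of the same replicate number. None of the 18 calls given below was lost without watered replicate 1. That fit leaves these differences between the groups in place, and their effect on the calls was not tested. The tissue was checked with 1 paired gene of 8 rosette leaf markers, RCA (Rubisco activase), which had 6182, 4946 and 3438 units under water deficit and 9398, 8388 and 7311 units in watered rosettes. RCA was itself called 1.76-fold lower under water deficit (limma adjusted p = 0.0282), without overlap between the groups. Of 4 root markers, EXPA7 was at or below the floor on all 6 arrays, and PYK10, a glucosidase abundant in roots, had 459, 543 and 1214 units under water deficit, against 251, 409.9 and 858 units in watered rosettes, with overlapping groups. Its part in the results was not tested. None of the listed flower, pollen or seed markers was paired.

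Transcripts of pectin-modifying enzymes and inhibitors were mostly lower under water deficit. Of the 28 tested genes, 17 fell and 1 rose at a limma adjusted p under 0.05, and 10 were not called. Thus 60.7% of these 28 genes fell and 3.57% rose, against 23.0% and 21.8% of all 13703 probe sets tested. The median log2 fold change of the 28 genes was -1.21, and that of all probe sets tested was 0.04. The 3 water deficit arrays lay below the 3 watered arrays in 17 of the 28 tested genes, and in 28.0% of all probe sets tested. These were the same 17 genes that fell, so this count is not separate from the calls. The study used a 4-fold change and a p no higher than 0.001 from another model. With these thresholds on the fold and the unadjusted limma p, 8 of the 28 genes were lower and none was higher. The shares of all probe sets tested were 4.15% and 4.06%. Of these 8 genes, AT3G07010, AT2G26440 and AT5G20740 had no water deficit array above the floor, so they could only fall.

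Part of these counts follows from the floor. Of the 17 genes that fell, 4 had no water deficit array above the floor. Their watered arrays alone carried them past the filter, so a fall was the only change they could show. Of the other 24 tested genes, 13 fell and 1 rose. The share of all probe sets was not taken under the same restriction, so the 23.0% that were lower is not a like figure for these 24. No tested gene was at the floor on all 3 watered arrays. Where a gene was at the floor on any water deficit array its fold is written as at least that fold, which applies to 8 of the 17. In whole rosettes, fewer cells that make a transcript and less transcript per cell cannot be told apart.

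**Figure D1:**
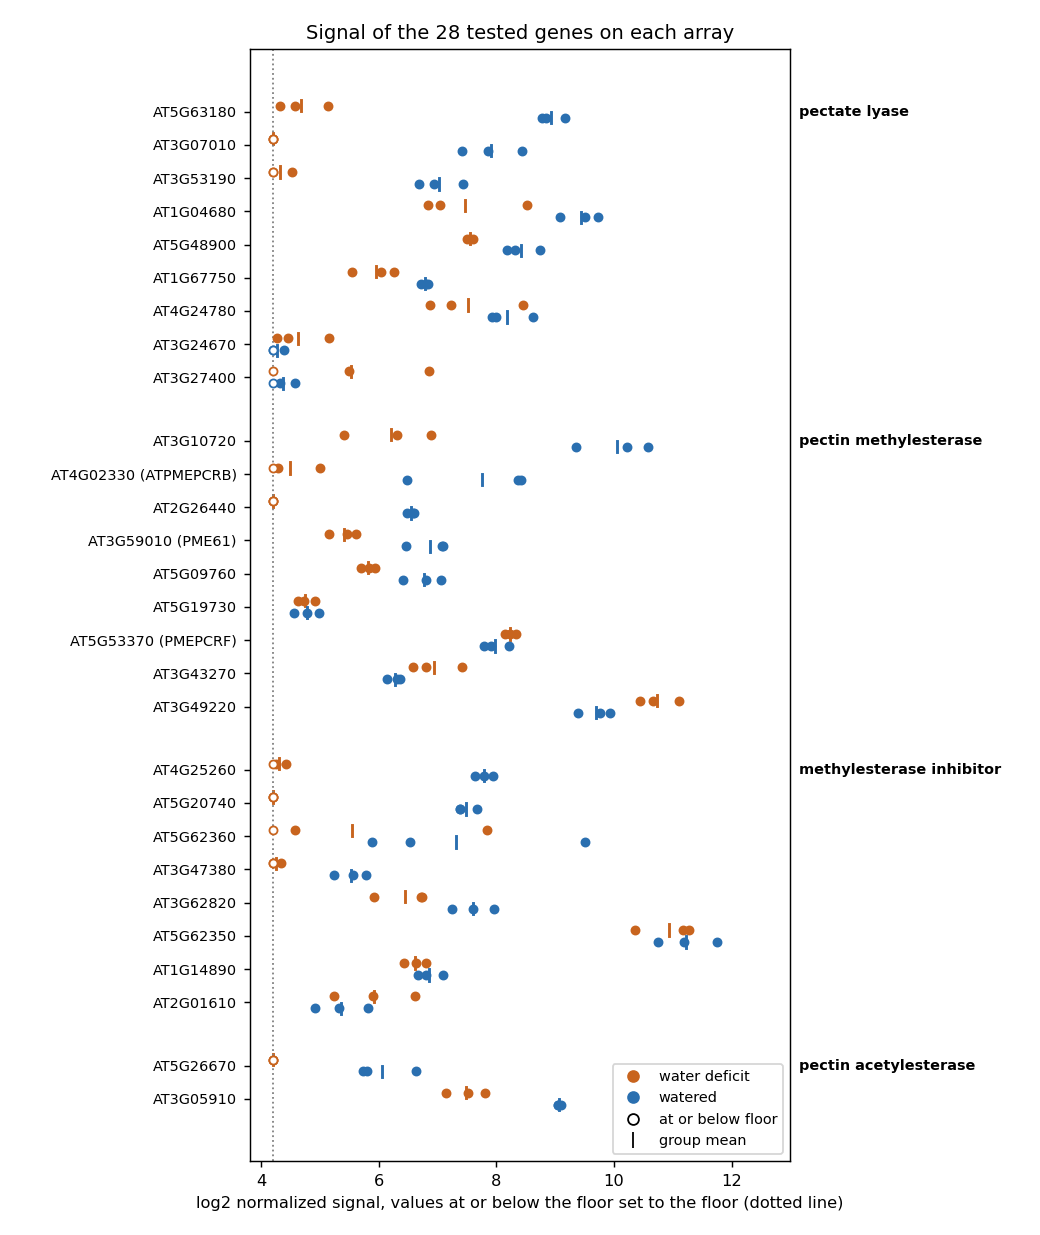
Log2 normalized signal (x axis) of each of the 28 tested genes (rows, grouped by class) on the 3 water deficit arrays (orange, above) and the 3 watered arrays (blue, below), with vertical bars at the group means and open points at or below the floor of 4.21 (dotted line). In 17 genes the orange points lie wholly to the left of the blue points and the test was passed.

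Pectate lyases, which cleave demethylated homogalacturonan by elimination, included the gene with the most negative log2 fold change of the 28, AT5G63180, at the floor used here. With the floor at the 25th percentile AT5G20740, of the inhibitor class, and AT3G07010 were more negative, at -5.23 and -4.62. Of 9 tested pectate lyases 6 fell and 3 were not called, and the median log2 fold change was -0.87. AT5G63180 had 35.1, 23.7 and 19.9 units in water deficit replicates 1, 2 and 3, against 457, 439.8 and 573 units in watered replicates 1, 2 and 3. All 6 arrays were above the floor and the groups did not overlap. Its log2 fold change was -4.25 (SE 0.25, 3 arrays a group, adjusted p = 1.69e-05 by limma), which is 19.1-fold lower. AT3G07010 had 8.21, 14.2 and 7.92 units in water deficit replicates 1, 2 and 3, against 169.9, 231 and 347 units in watered replicates 1, 2 and 3. It was below the floor on every water deficit array, and its log2 fold change of -3.69 (SE 0.26, 3 arrays a group, adjusted p = 4.11e-05 by limma) stands for a level at least 12.9-fold lower. AT3G53190 had 7.45, 14.7 and 22.9 units under water deficit, against 122, 173 and 103 units in watered rosettes. A single water deficit array exceeded the floor, and the gene was at least 6.53-fold lower (log2 fold change -2.71, SE 0.23, adjusted p = 9.66e-05 by limma).

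The remaining pectate lyases that fell stayed well above the floor. AT1G04680 had 368, 131 and 115 units under water deficit, against 849, 729.5 and 542 units in watered rosettes. Water deficit replicate 1 was the highest of its group, but still below every watered array, and the log2 fold change was -1.97 (SE 0.43, 3 arrays a group, adjusted p = 0.00746 by limma). This call was lost after spike-in scaling (adjusted p = 0.0604), without scaling (0.183) and without the filter (0.0791), at limma log2 fold changes of -1.68, -1.53 and -1.97. AT5G48900 had 179.9, 193 and 187 units under water deficit, against 290.0, 319.9 and 427 units in watered rosettes, a narrow range under water deficit, and was 1.83-fold lower (adjusted p = 0.00893, limma). It was no longer called after spike-in scaling, at -0.47 on the log2 scale, or without scaling, at -0.32 (limma adjusted p = 0.707 and 0.837, from 0.00623 to 0.837 over all alternatives). AT1G67750 was 1.79-fold lower, with 46.4, 76.4 and 65.6 units under water deficit, against 114, 105 and 112 units in watered rosettes (limma adjusted p = 0.0157). That call did not hold after spike-in scaling (-0.40 on the log2 scale), without scaling (-0.25) or without the filter (-0.84), with limma adjusted p-values of 0.7498, 0.874 and 0.0604, the lowest of all alternatives being 0.0157.

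Among the pectate lyases that did not pass the test, AT4G24780 had 349, 149.7 and 117 units under water deficit, against 242, 254 and 394 units in watered rosettes. Water deficit replicate 1 lay among the watered values, the other water deficit arrays lay below them, and the 95% interval of the log2 fold change was -1.61 to 0.28. Without water deficit replicate 1 the gene was called, at -1.13 on the log2 scale (limma adjusted p = 0.0221, and between 0.0215 and 0.945 over all alternatives), and without water deficit replicate 3 the value was -0.34 (limma adjusted p = 0.557). AT3G27400 had 116, 44.9 and 17.5 units under water deficit, against 19.8, 15.7 and 23.7 units in watered rosettes, with 1 array of each group below the floor and the groups overlapping. Its log2 fold change was 1.16 (SE 0.57, 3 arrays a group, adjusted p = 0.136 by limma). Without water deficit replicate 3, the lowest of its group, it was 1.81 (limma adjusted p = 0.0175, and between 0.0175 and 0.446 over all alternatives), and without water deficit replicate 1, the highest, it was 0.49 (limma adjusted p = 0.355). AT3G24670 had 35.5, 21.9 and 19.2 units under water deficit, against 12.5, 20.8 and 18.3 units in watered rosettes, near the floor in both groups, with a 95% interval of -0.22 to 0.94. The other paired pectate lyases, AT4G13710, AT5G04310, AT1G11920 and AT4G13210, were at or below the floor on all 6 arrays, and PMR6, known from mutants that resist powdery mildew, was not paired.

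**Figure D2:**
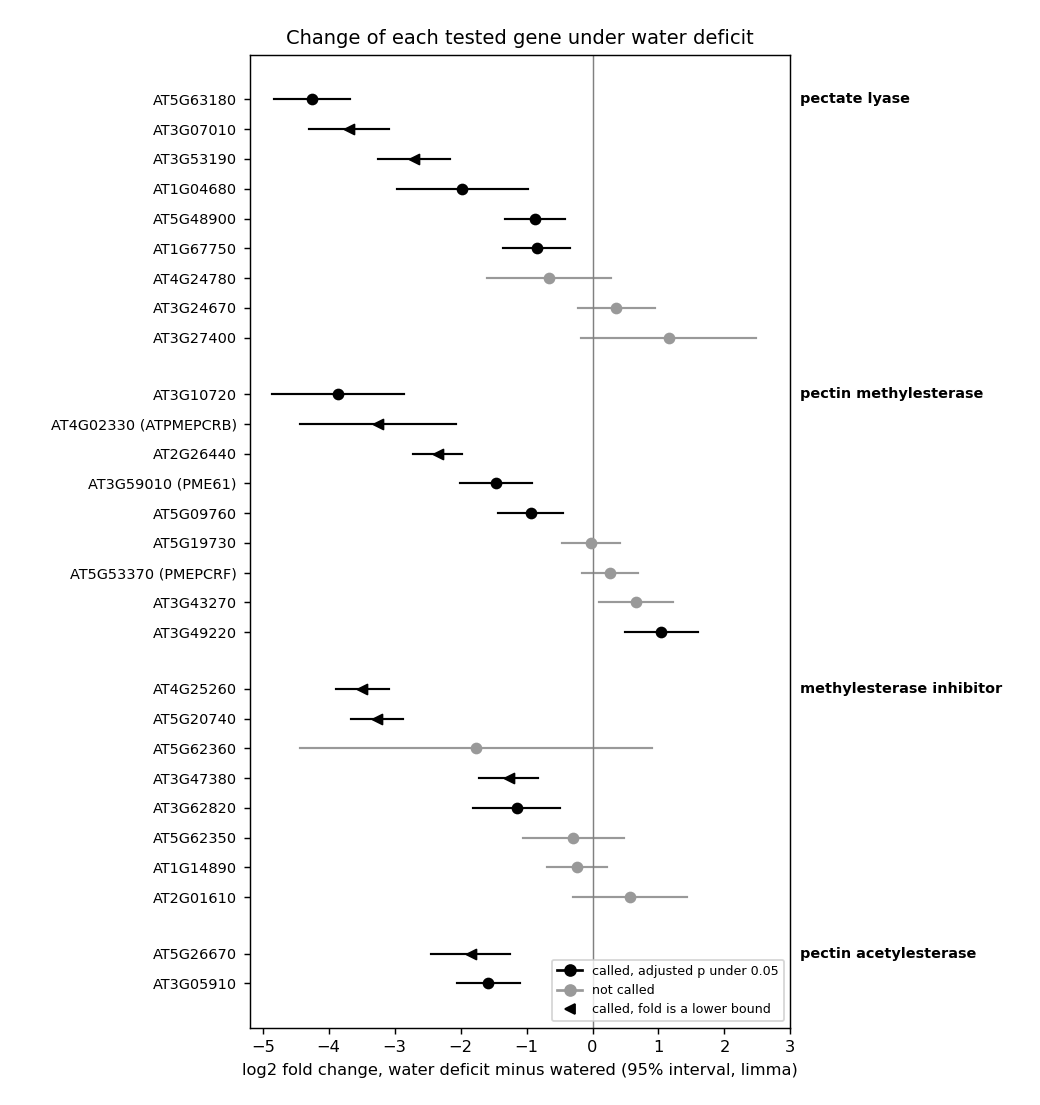
Log2 fold change of each tested gene, water deficit minus watered (x axis), with its 95% interval from limma (n = 3 per group), grouped by class. Black marks the 18 genes called at an adjusted p under 0.05 and grey the 10 not called, triangles mark called genes whose fold is a lower bound, and AT5G62360 has the widest interval, -4.44 to 0.90.

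Pectin methylesterases changed in both directions. Of 9 tested genes 5 fell, 1 rose and 3 were not called, and the median log2 fold change was -0.94, against 0.0203 over 10 genes without scaling. AT3G10720 had 119, 79.3 and 42.3 units in water deficit replicates 1, 2 and 3, against 1534, 1195 and 657 units in watered replicates 1, 2 and 3. It remained above the floor throughout, with no overlap between the groups, and was 14.5-fold lower under water deficit (log2 fold change -3.86, SE 0.43, adjusted p = 0.000318 by limma). ATPMEPCRB (AT4G02330, also called PME41) had 32.0, 19.4 and 11.1 units in water deficit replicates 1, 2 and 3, against 341, 328 and 88.8 units in watered replicates 1, 2 and 3. Watered replicate 3 was the lowest of its group and water deficit replicate 3 was below the floor, and the gene was at least 9.54-fold lower (log2 fold change -3.25, SE 0.51, adjusted p = 0.00163 by limma, and -3.89 without watered replicate 3). AT2G26440, also called PME12, had 9.58, 8.71 and 11.8 units in water deficit replicates 1, 2 and 3, against 95.9, 89.1 and 97.0 units in watered replicates 1, 2 and 3. It was below the floor on every water deficit array and within a narrow range on the watered ones, and was at least 5.09-fold lower (log2 fold change -2.35, SE 0.16, adjusted p = 3.33e-05 by limma).

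PME61 (AT3G59010, also called PME35), which in inflorescence stems is known to demethylate the pectin of fibre walls, was 2.76-fold lower. It had 35.5, 43.9 and 49.0 units under water deficit, against 88.4, 136 and 135 units in watered rosettes (log2 fold change -1.47, SE 0.23, adjusted p = 0.00174 by limma). AT5G09760 had 61.2, 57.1 and 51.6 units under water deficit, against 133, 112 and 85.4 units in watered rosettes, and its log2 fold change was -0.94 (SE 0.21, 3 arrays a group, adjusted p = 0.00845 by limma). In both genes every water deficit array was below every watered array, and both calls were lost under other scalings. After spike-in scaling the log2 fold changes of PME61 and AT5G09760 were -1.02 and -0.52 (limma adjusted p = 0.336 and 0.670), and without scaling they were -0.87 and -0.37 (0.507 and 0.806).

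AT3G49220, known as PME34 and described in guard cells during heat stress, was the 1 gene of the 28 that rose. It had 2205, 1384 and 1612 units in water deficit replicates 1, 2 and 3, against 972, 865 and 669 units in watered replicates 1, 2 and 3. Every water deficit array was above every watered array, and the gene was 2.06-fold higher (log2 fold change 1.04, SE 0.24, adjusted p = 0.00923 by limma). Over the 15 alternative settings the log2 fold change ran from 0.85 to 1.39, and only the other scalings could have reversed its direction. The call was lost in 3 of the 15 (limma adjusted p-values from 0.00501 to 0.244). AT3G43270 moved the same way without passing the test. It had 170.3, 96.1 and 111 units under water deficit, against 82.5, 70.5 and 79.6 units in watered rosettes, without overlap, and its log2 fold change was 0.66 (SE 0.24, 3 arrays a group, adjusted p = 0.0573 by limma). With the replicate number as a block its adjusted p was 0.0307, so that 2 genes were then called higher. Without water deficit replicate 2 it was 0.0472, at a log2 fold change of 0.83, and without water deficit replicate 1, the highest of its group, it was 0.114, at 0.42. Over all alternatives it lay between 0.0307 and 0.324.

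PMEPCRF (AT5G53370) had 282, 321 and 299 units under water deficit, against 241, 295 and 221 units in watered rosettes, with overlapping groups and a 95% interval of the log2 fold change of -0.17 to 0.68. For AT5G19730 the interval was -0.46 to 0.41, around a log2 fold change of -0.03, with all 6 arrays between 23.4 and 31.6 units. AT2G45220 (PME17), a methylesterase known to be induced by the fungus Botrytis cinerea, did not pass the filter. It had 67.0, 53.9 and 15.8 units in water deficit replicates 1, 2 and 3, against -5.85, -10.1 and -5.93 units in watered replicates 1, 2 and 3. It was above the floor on 2 water deficit arrays and on no watered array, so no fold is given and it could only rise in a test. Under the alternatives in which it was tested its adjusted p was 0.00686 with the floor at the 25th percentile, 0.0351 after spike-in scaling, 0.0806 without scaling and 0.284 without the filter. AT1G02810, AT5G04960 and AT4G02320 were below the floor on all 6 arrays. The other 7 methylesterases were not paired, namely PME2 and its neighbour AT1G53840, PME3, PME44, PME5, PMEPCRA and PME31.

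Of the proteins with a methylesterase inhibitor domain, 8 were tested. Of these 4 fell and 4 were not called, and the median log2 fold change was -1.21. AT4G25260, known as PMEI7 and shown to inhibit a methylesterase in vitro, had 21.5, 19.1 and 15.4 units in water deficit replicates 1, 2 and 3, against 199, 221 and 244 units in watered replicates 1, 2 and 3. The floor was exceeded by a small margin on 2 water deficit arrays, and the gene was at least 11.2-fold lower (log2 fold change -3.49, SE 0.17, adjusted p = 9.97e-06 by limma). AT5G20740 had -5.71, 5.53 and -5.87 units in water deficit replicates 1, 2 and 3, against 167, 167 and 202 units in watered replicates 1, 2 and 3. It was at background on every water deficit array and at least 9.64-fold lower (log2 fold change -3.27, SE 0.17, adjusted p = 1.11e-05 by limma). AT3G47380 had 20.1, 10.1 and 9.16 units under water deficit, against 46.9, 37.7 and 54.8 units in watered rosettes and was at least 2.42-fold lower (log2 fold change -1.27, SE 0.19, adjusted p = 0.00138 by limma). Its call was lost after spike-in scaling (-1.58, limma adjusted p = 0.0859) and without scaling (-1.43, 0.228). AT3G62820 had 106, 105 and 60.4 units under water deficit, against 248, 194 and 152 units in watered rosettes. It stayed above the floor, with no overlap between groups, and was 2.22-fold lower (log2 fold change -1.15, SE 0.29, adjusted p = 0.0129 by limma). For this gene the call ended after spike-in scaling (-0.74, limma adjusted p = 0.512), without scaling (-0.59, 0.673) and without the filter (-1.15, 0.0840).

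AT5G62350, which lies next to AT5G62360 on chromosome 5, had 2309, 1315 and 2474 units under water deficit, against 1716, 2325 and 3453 units in watered rosettes. The groups overlapped, and the 95% interval of the log2 fold change was -1.06 to 0.48. AT5G62360 itself spread widely within both groups, with 228, 11.9 and 23.7 units in water deficit replicates 1, 2 and 3, against 59.2, 92.6 and 723 units in watered replicates 1, 2 and 3. Water deficit replicate 1 was higher than watered replicates 1 and 2, and the log2 fold change was -1.77 (SE 1.15, 3 arrays a group, adjusted p = 0.245 by limma). Over the 4 brighter arrays it was -3.63 (limma adjusted p = 0.0362, and between 0.0362 and 0.642 over all alternatives). Leaving out single arrays gave values from -2.92, without water deficit replicate 1, to -0.67, without watered replicate 3 (limma adjusted p = 0.0686 and 0.626). The difference between the log2 fold changes of these neighbours was 1.48 and did not stand out from the spread between arrays (exact permutation test over arrays, two-sided, p = 0.4, where the smallest p that 3 against 3 arrays allow is 0.1). Arrays were permuted without regard to their replicate numbers.

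AT1G14890 had 85.7, 112 and 99.0 units under water deficit, against 101, 112 and 136 units in watered rosettes, and the 95% interval of its log2 fold change was -0.69 to 0.22. For AT2G01610 the interval was -0.30 to 1.43, with 98.1, 59.4 and 37.9 units under water deficit, against 30.2, 40.1 and 56.4 units in watered rosettes. In both genes the groups overlapped. AT1G62760 was above the floor on watered replicate 1 only, at 31.3 units, and AT5G51520 and AT4G25250 were below it on all arrays. AT4G25250 is the neighbour of AT4G25260 on chromosome 4, and AT4G02320 is that of ATPMEPCRB, so in each of these adjacent pairs 1 gene was at background on every array while the other was measured in all watered rosettes and fell. PMEI1, PMEI2, AT4G12390 and AT2G47670 (PMEI6, known from the mucilage of the seed coat) were not paired.

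Only 2 pectin acetylesterases were paired, and both fell. AT3G05910 had 222, 141 and 184 units in water deficit replicates 1, 2 and 3, against 530.3, 531 and 549 units in watered replicates 1, 2 and 3. The watered arrays lay within a narrow range, above all water deficit arrays, and the gene was 2.99-fold lower (log2 fold change -1.58, SE 0.21, adjusted p = 0.000677 by limma), a call lost after spike-in scaling (-1.23, adjusted p = 0.223) and without scaling (-1.07, 0.397). AT5G26670 had 4.44, 11.6 and 6.84 units in water deficit replicates 1, 2 and 3, against 98.8, 55.8 and 52.8 units in watered replicates 1, 2 and 3. No water deficit array exceeded the floor, and the gene was at least 3.59-fold lower (log2 fold change -1.84, SE 0.26, adjusted p = 0.000941 by limma). Without scaling its adjusted p was 0.0651 (limma), the highest of all alternatives. AT4G19420 (PAE8), AT5G45280 (PAE11), AT2G46930 (PAE3) and AT3G62060 (PAE6) were not paired.

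**Figure D3:**
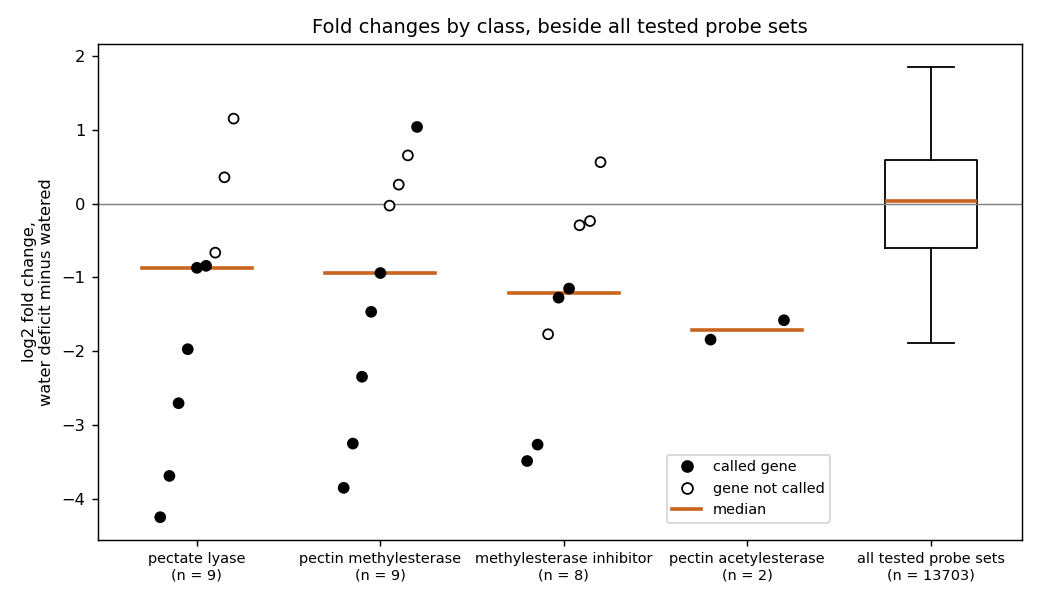
Log2 fold changes, water deficit minus watered (y axis), of the tested genes in each class, filled where called, with the class median (orange line), beside a box plot of all 13703 probe sets tested (box, quartiles; whiskers, 5th and 95th percentiles). The class medians are -0.87, -0.94 (0.0203 without scaling), -1.21 and -1.71, and that of all probe sets is 0.04.

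By class, the medians were -0.87 for the 9 pectate lyases, -0.94 for the 9 methylesterases, -1.21 for the 8 inhibitors and -1.71 for the 2 acetylesterases. These depended on the scaling. In the same class order they were -0.47, -0.10, -0.74 and -1.66 after spike-in scaling and -0.32, 0.0203, -0.59 and -1.50 without scaling, so that the methylesterase median changed sign. Taken between arrays of the same replicate number, the class medians were -1.21, -0.76 and -1.76 for the pectate lyases, -1.12, -0.97 and -0.73 for the methylesterases, -0.73, -0.96 and -1.45 for the inhibitors and -1.84, -1.75 and -1.55 for the acetylesterases in replicates 1, 2 and 3. The first 3 classes therefore covered overlapping ranges, and the range of the pectate lyases also overlapped that of the 2 acetylesterases. No difference between classes was tested. Each class held genes that were called lower, the methylesterases and the inhibitor-domain class included. Of the tested genes, 66.7%, 55.6%, 50% and 100% were lower in the same class order, against 23.0% of all probe sets tested. These shares include the 4 genes that could only fall.

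Scaling of the arrays set how many genes passed. With the arrays scaled by their hybridisation spike-in controls the median log2 fold change of all probe sets was 0.38, and with no scaling it was 0.51. Changes are given here after quantile normalization, where this median was 0.04 and was not subtracted. With median scaling 17 of 27 tested genes fell and 2 rose, against 23.8% and 21.7% of all probe sets tested. With spike-in scaling 9 of 30 fell and 1 rose, which was AT2G45220 and not AT3G49220. AT2G45220 was at background on all watered arrays, so it could only rise. With no scaling 8 of 30 fell and none rose. Under these last 2 settings 4.08% and 2.48% of all probe sets tested were lower, and 8.23% and 6.91% were higher. The 18 genes called after quantile normalization kept their direction under each of these scalings. The lower calls lost under both settings were AT1G04680, AT1G67750, AT5G48900, PME61, AT5G09760, AT3G47380, AT3G62820 and AT3G05910, with AT5G26670 lost as well without scaling.

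**Figure D4:**
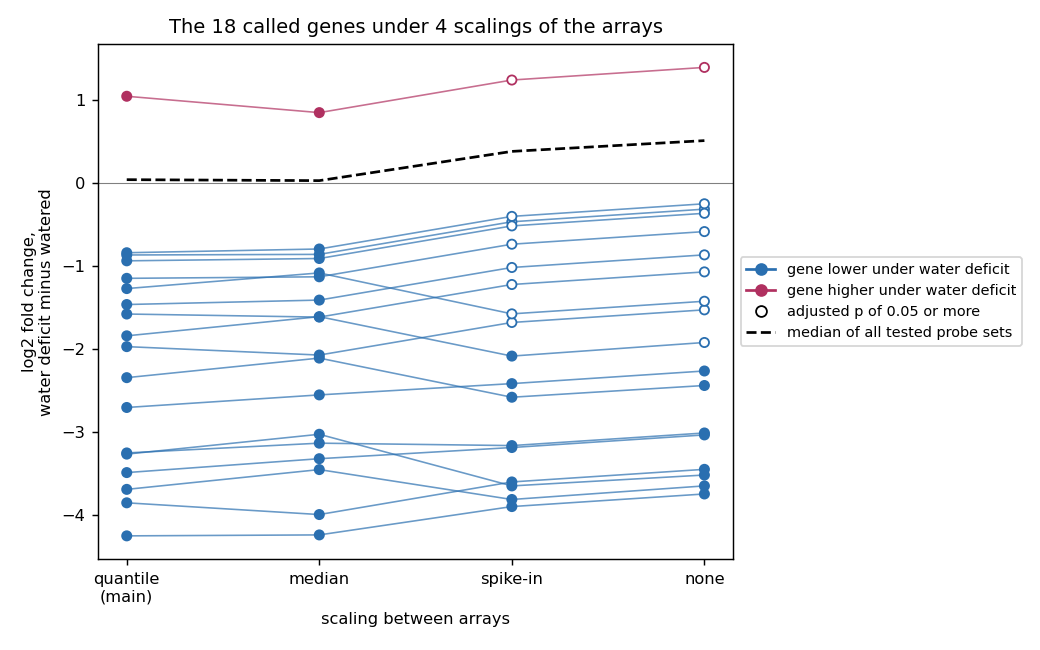
Log2 fold change (y axis) of the 18 called genes under 4 scalings between arrays (x axis), 1 line per gene, open where the adjusted p was 0.05 or more. The dashed line is the median of all probe sets tested, at 0.04, 0.03, 0.38 and 0.51, and no gene crosses 0.

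Other genes of pectin metabolism were listed by function, 57 in all, of which 10 were paired and 8 tested. Of these 8, 3 rose, 2 fell and 3 were not called, so 37.5% rose and 25% fell, against 21.8% and 23.0% of all probe sets tested. The 25% is near the share of all probe sets. The 37.5% includes the subtilase SBT3.5, which was below the floor on all watered arrays and could only rise. AT3G49720, known as CGR2, which methylates homogalacturonan in the Golgi, had 471, 418 and 377 units under water deficit, against 1252, 1003 and 1065 units in watered rosettes, and was 2.62-fold lower (limma adjusted p = 0.000692, but 0.244 after spike-in scaling and 0.4197 without scaling). GAUT15, of the galacturonosyltransferase family that builds the backbone, had overlapping groups and a 95% interval of -0.72 to 0.68. AT1G48100, a polygalacturonase known as PGX3 that works in guard cells, had 114, 82.7 and 103 units under water deficit, against 22.0, 19.2 and 34.9 units in watered rosettes, and was 4.03-fold higher (limma adjusted p = 0.000645). It was the 1 gene tested of 9 listed polygalacturonases and their inhibitors, and its watered values of 22.0 and 19.2 units were close to the floor. It moved opposite to the 6 pectate lyases that fell. Of the pectate lyases not called, AT3G27400 and AT3G24670 had positive log2 fold changes and AT4G24780 a negative one. ADPG1 and AT1G78400, also polygalacturonases, were below the floor on all arrays.

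The receptor kinase THE1, which monitors wall integrity during growth, had 36.1, 21.5 and 10.2 units under water deficit, against 425, 318 and 149 units in watered rosettes, and was at least 11.2-fold lower (log2 fold change -3.49, SE 0.41, adjusted p = 0.000411 by limma). FER, a related receptor that binds pectin, showed a change of -0.35 (SE 0.17, 3 arrays a group, adjusted p = 0.116 by limma) on the log2 scale, and was called with median scaling, at -0.53 (limma adjusted p = 0.0482), and without the filter (0.0370). Subtilases process methylesterases by removing their inhibitory pro-region. Of 3 tested, ARA12 had 896, 1219 and 1142 units under water deficit, against 503, 482 and 529 units in watered rosettes, and was 2.13-fold higher (limma adjusted p = 0.00232, but 0.1597 after spike-in scaling and 0.189 without scaling). SBT3.5, known to process PME17 in roots, was below the floor on all watered arrays, so it could only rise, and was at least 1.64-fold higher (limma adjusted p = 0.0179). Its call was lost in 6 of the 15 alternatives, among them the fits without water deficit replicate 2 (limma adjusted p = 0.0706) and without watered replicate 2 (0.0575). S1P showed a change of 0.60 (SE 0.25, 3 arrays a group, adjusted p = 0.0879 by limma) on the log2 scale, and was called with the replicate block (limma adjusted p = 0.0387) and without watered replicate 1, at 0.85 (0.0146).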

How the data were processed

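Total RNA was extracted from rosettes with Trizol, labelled as biotinylated cRNA and hybridised to ATH1 arrays. The authors read probe set signals with the GeneChip Operating Software of Affymetrix and used Rosetta Resolver for the analysis. The deposited values are background-subtracted intensity on a linear scale, 1 column per array, not pooled and not scaled between arrays: the mean of an array ran from 79.4 to 261, and 13.2% to 17.8% of its values were at or below 0. A genome build for the probe sets was not given in the sources used here. Depth has no counterpart on arrays, whose number limits the precision.

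Intensities were quantile normalized (limma 3.58.1, R 4.3.3), raised to the floor and converted to log2. A probe set was tested when 3 or more of the 6 arrays exceeded the floor (13703 of 22746). Groups were compared with lmFit and eBayes, two-sided, group as the only term, with p-values adjusted by Benjamini-Hochberg over the 13703 and a threshold of 0.05. The fit was checked on simulated data. The methods' proprietary ratio model was not rerun. Values were unscaled and partly below 0, which is why scaling and a floor were needed.

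Of the genes described, 37 were paired with a probe set through the platform annotation, updated with an NCBI gene table (assembly TAIR10.1), and 2 (AT2G26440 and AT2G45220) through the name and code columns of the study's supplementary array table. For 2 genes with a second probe set the brighter one was used, and the second was below the floor on all arrays. The members, the gene lists and the tests were chosen with earlier results of these data known. Every called gene was named, as were, in each class, uncalled genes by mean signal.

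Arrays with a shared replicate number departed from their group means in the same way (across probe sets r was 0.291, 0.23 and 0.393 for numbers 1, 2 and 3 and between -0.381 and 0.0285 otherwise), so the numbers in the sample titles were taken to pair the samples. Deviations from a group mean cancel within a group, so part of this contrast is built in. Neither the main fit nor the permutation test of neighbouring genes used this pairing. The replicate block was run as an alternative, beside other scalings, a floor at the 25th percentile, no filter, a mean-variance trend, the mean of all probe sets of a gene, and fits without each array or without replicate 1 of both groups. Fits without an array kept the values and tested probe sets of the 6 arrays.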

Additional observations from a re-analysis of the deposited data

How the results depend on the processing

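Of the 18 called genes, none changed direction in any of the 15 alternatives. Only the other scalings could have reversed a direction. The groups of these 18 genes did not overlap, so the remaining alternatives could not change a sign. The counts of lower genes were furthest from 17 under 2 of the scalings. With no scaling 8 genes were lower and 0 higher, and with spike-in scaling 9 were lower, so 10 and 9 of the 18 calls were lost. The medians with no scaling were -0.32 for pectate lyases, 0.0203 for methylesterases (reversed, over 10 genes), -0.59 for inhibitors and -1.50 for acetylesterases, and with spike-in scaling -0.10 for methylesterases and -0.74 for inhibitors. The median of all probe sets was 0.51 with no scaling and 0.38 with spike-in scaling. Of all calls 66.8% were higher after spike-in scaling and 73.6% without scaling, against 48.7% after quantile normalization. Over all probe sets tested the counts were 1235 higher and 613 lower after spike-in scaling and 1030 higher and 370 lower without scaling, against 2992 and 3154. With median scaling 2 genes were called higher and the pectate lyase median was -1.47, as AT3G24670 then failed the filter. With the floor at the 25th percentile 2 were called higher, the second being AT2G45220, which could only rise. The methylesterase and acetylesterase medians were then -0.41 and -2.41 (11 and 2 genes). With no filter 0 were called higher and 14 lower, and the medians were 0 for methylesterases and -0.29 for inhibitors, since genes at the floor throughout were counted as unchanged. The replicate block gave 2 higher through AT3G43270, called S1P as well, and changed no other call. Leaving out each array in turn gave 1 to 2 genes higher and 17 to 18 lower, with no call lost. Low signals limit the folds: 8 of the 17 lower calls are bounds, and with the floor at the 25th percentile the log2 fold changes of AT5G20740, AT3G07010, AT2G26440 and AT5G26670 were -5.23, -4.62, -3.24 and -3.23.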
